A study of Mus musculus with 30 samples.

Results

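The genes followed here are Ciita, which encodes the class II transactivator, and 5 genes of the MHC class II pathway that it switches on, H2-Aa, H2-Ab1, H2-Eb1, H2-DMa and Cd74. Each gene was read on probe sets (groups of short probes that report 1 transcript) annotated to that gene symbol alone, and where a gene had several, the one that read highest on average across all 30 arrays was kept. All 6 genes had such a probe set, and together they had 13. They are 6 of the 17097 genes that the arrays measured in this way.

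MHC class II molecules are paired alpha and beta chains on the surface of antigen-presenting cells, where they show peptides from engulfed protein to CD4+ T cells. In dendritic cells, macrophages and B cells CIITA is the switch of the system: it binds no DNA itself but is recruited to the promoters of class II genes by RFX, CREB and NF-Y factors already sitting there. Mouse T cells, unlike human ones, are generally held not to transcribe Ciita when activated.

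The mice were DO11.10 RAG2-/- BALB/c animals aged 8 to 10 weeks in every group. Their T cells carry a single transgenic receptor that recognises an ovalbumin (OVA) peptide, and loss of RAG2 leaves them without B cells. Abatacept-treated mice were primed with 100 µg OVA in complete Freund's adjuvant and given 10 mg/kg abatacept, a CTLA4-Ig fusion protein that binds CD80 and CD86. Control IgG mice were primed likewise and given 10 mg/kg IgG. Tolerised mice drank OVA in their water, primed mice received OVA and adjuvant alone, and unimmunised mice received no antigen. Cells of abatacept-treated, control IgG and primed mice were taken 10 days after immunisation. No such day is given for tolerised and unimmunised mice. Each of the 5 conditions has 3 arrays of CD11c+ cells and 3 of CD4+ T cells. CD11c+ cells were pooled from lymph nodes and spleen in all groups. CD4+ T cells came from axillary nodes of abatacept-treated, control IgG and primed mice, from mesenteric nodes of tolerised mice, and from pooled nodes and spleen of unimmunised mice, so that treatment and tissue cannot be told apart where the tolerised or unimmunised CD4+ group is compared. The labels state a purity over 90% for both sorts. Whether the 3 replicates of a group came from different animals is not stated there, and the p-values therefore measure sample-to-sample spread that may be technical.

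The arrays give log2 values, and the median probe set of an array lay between 4.46 and 4.54. All 8 T cell markers were above the array median on every CD4+ array. CD11c+ arrays held dendritic cell markers, but the 7 red pulp macrophage markers were also above the median on every one of them. The B cell factor Pax5 was below the median on all 30 arrays, as was the B cell kinase Blk on all 15 CD4+ arrays. Other B cell markers were not all low. Of the 5 measured, 2 were above the median on all arrays of the tolerised and of the unimmunised CD4+ samples. In every other group 1 of the 5 was. Salivary gland transcripts were high on 5 CD11c+ arrays (unimmunised replicate 2, control IgG replicates 2 and 3, tolerised replicate 3, abatacept replicate 3), and results on CD11c+ cells were also computed without them. Sex-linked transcripts differed between groups. The Y-linked Eif2s3y averaged 2.53 with abatacept, 7.63 with control IgG, 2.62 in tolerised, 8.58 in primed and 2.58 in unimmunised mice on CD11c+ arrays. On CD4+ arrays it averaged 2.60 with abatacept, 2.51 with control IgG, 8.89 in tolerised, 8.62 in primed and 2.56 in unimmunised mice. Sex and treatment therefore cannot be told apart in CD11c+ cells for abatacept against control IgG, primed against unimmunised or tolerised against primed mice. In CD4+ samples the same holds for primed, and for tolerised, against unimmunised mice, for abatacept against tolerised and for control IgG against primed mice. Between cell types, Eif2s3y differed in control IgG mice (7.63 in CD11c+, 2.51 in CD4+) and in tolerised mice (2.62 in CD11c+, 8.89 in CD4+). Sex and cell type therefore cannot be told apart in those 2 conditions. The part of sex in the other comparisons was not tested.

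In promoters of class II genes, CIITA is recruited at a pair of short elements called the X box and the Y box, of which the Y box is a binding site of NF-Y. RefSeq promoter windows of mouse build GRCm38.p6 (250 bases before to 50 after the start of transcription, from the reference strain and not from BALB/c) were available for H2-Aa, H2-Eb1 and H2-DMa. The windows of H2-Aa (chr17:34287774-34288073, minus strand) and H2-Eb1 (chr17:34305617-34305916, plus strand) are shown because both hold the pair, printed in capitals, with the X box core first and the Y box after it.
H2-Aa: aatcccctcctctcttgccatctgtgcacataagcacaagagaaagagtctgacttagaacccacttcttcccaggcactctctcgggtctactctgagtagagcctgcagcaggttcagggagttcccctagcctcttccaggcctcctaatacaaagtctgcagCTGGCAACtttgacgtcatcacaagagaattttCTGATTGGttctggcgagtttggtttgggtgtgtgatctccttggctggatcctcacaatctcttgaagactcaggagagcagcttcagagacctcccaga
H2-Eb1: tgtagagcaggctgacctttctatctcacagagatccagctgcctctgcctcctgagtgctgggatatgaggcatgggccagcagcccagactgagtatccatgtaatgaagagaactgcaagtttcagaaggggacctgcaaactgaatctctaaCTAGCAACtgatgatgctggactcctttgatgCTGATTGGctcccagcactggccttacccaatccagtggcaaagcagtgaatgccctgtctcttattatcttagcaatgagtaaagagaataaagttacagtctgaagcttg
The letters searched were CTNGCAAC for the X box core and CTGATTGG for the Y box, on both strands; the Y box letters contain the CCAAT box (CCAAT) on their other strand. These letters were chosen after these promoters had been read. Counted from the start of transcription, the X box core began at -84 in H2-Aa and at -94 in H2-Eb1, with 25 and 24 bases between the elements. Of 32851 promoter windows, 3.42% held the X box core, 4.10% the Y box and 37.4% a CCAAT box. An X box core followed by a Y box on the same strand 10 to 40 bases on was found in 6 windows (0.0183%), those of H2-Aa, H2-Eb1, Mark3 (2 windows), Mns1 and Net1. Neither window of H2-DMa (chr17:34122582-34122881 and chr17:34125268-34125567, plus strand) held the letters of either box. Promoters of Ciita, H2-Ab1 and Cd74 were not analysed here. The 4 H2 genes lie in the MHC on chromosome 17, where H2-Ab1, H2-Aa and H2-Eb1 are neighbours in that order.

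CD11c+ cells of every condition were rich in class II transcripts, and Ciita, the regulator, varied most among conditions. Ciita spanned 1.93 on the log2 scale over the 15 CD11c+ arrays, H2-DMa 1.07, and the other 4 genes between 0.49 and 0.63. H2-Ab1, H2-Eb1 and Cd74 stayed between 11.68 and 12.31 on all 15 arrays, near the top of the scale, whose highest value on any array was 13.24. How far a further rise could register there was not tested.

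**Figure D1:**
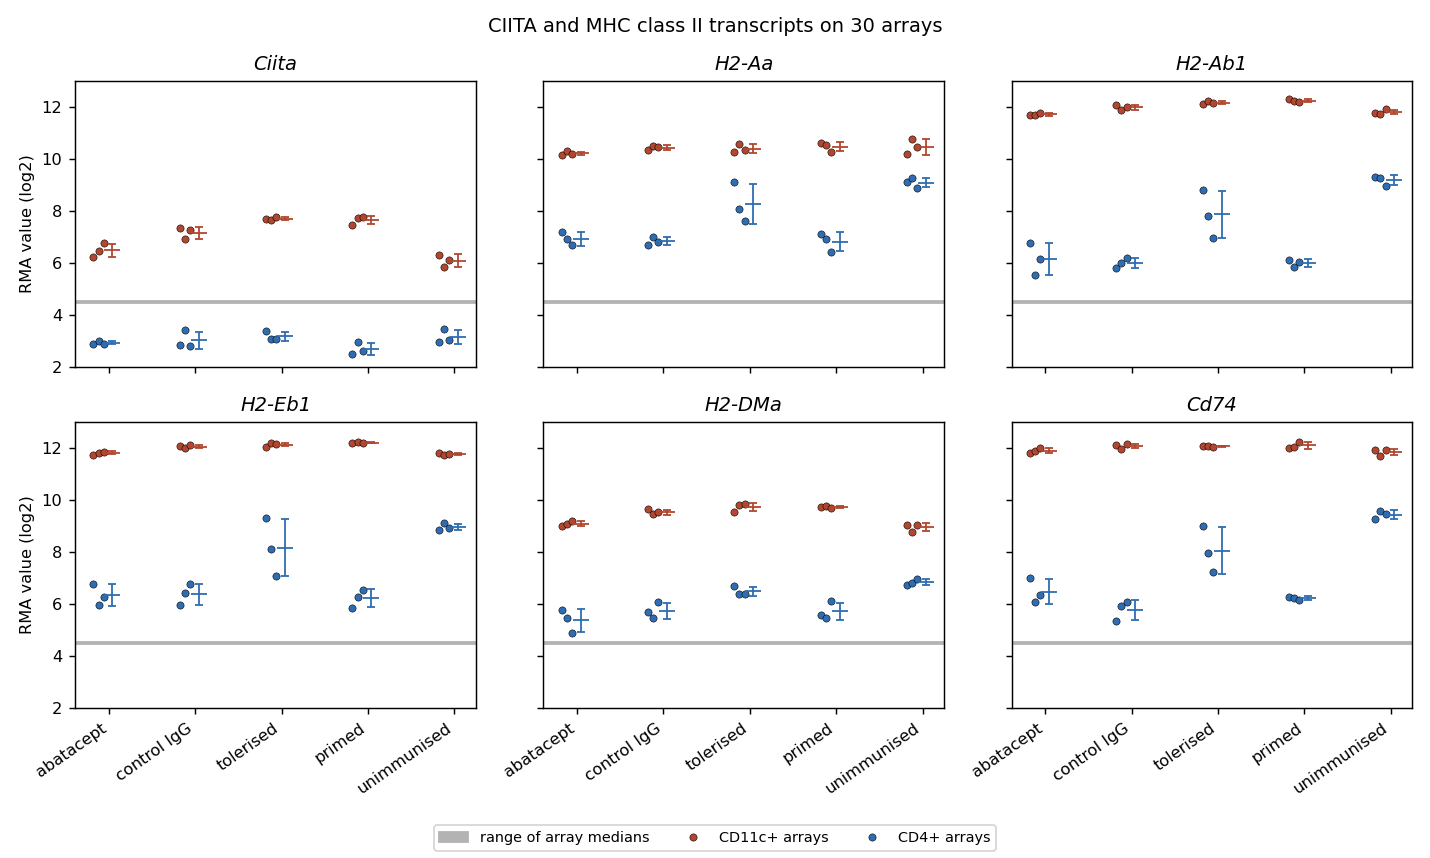
Each panel shows 1 gene, with RMA log2 values on the y axis and the 5 conditions on the x axis; points are single arrays, and the bar beside them is the mean ± SD (n = 3). CD11c+ arrays (red) lay above CD4+ arrays (blue) for every gene and condition, and CD4+ values of all genes but Ciita were highest in unimmunised and tolerised mice. The grey band is the range of array medians.

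Ciita and 4 of the 5 pathway genes were higher in CD11c+ cells of primed than of unimmunised mice. Fewer cells of a type and less RNA per cell cannot be told apart in these bulk samples. Ciita read 7.46, 7.72 and 7.76 on primed arrays, against 6.33, 5.84 and 6.12 on unimmunised arrays, so the groups did not overlap. The difference was 1.56 ± 0.154 (log2, SE), a 2.94-fold rise with a limma adjusted p of 1.4e-05. H2-DMa, the alpha chain of the DM molecule that exchanges the invariant chain remnant for antigenic peptide, read 9.72, 9.74 and 9.69 on primed arrays, against 9.01, 8.77 and 9.04 on unimmunised arrays. That was 1.71-fold higher (adjusted p = 7.6e-05). The beta chains H2-Ab1 and H2-Eb1 were each 1.35-fold higher in primed mice (adjusted p = 0.00067 and 0.00023), with no overlap between arrays. Cd74, which encodes the invariant chain that guides new class II molecules to endosomes, was 1.20-fold higher (adjusted p = 0.032). The alpha chain gene H2-Aa read 10.60, 10.53 and 10.27 on primed arrays, against 10.18, 10.79 and 10.47 on unimmunised arrays, and these overlapped (difference -0.01, adjusted p = 0.95). In all, 5 of 6 genes were called higher, while 25.5% of the 10203 genes tested were called higher in this comparison, in which Eif2s3y differed too. The median difference of the 6 genes was 0.435, against 0.086 over all genes tested. The call for Cd74 was lost without primed replicate 3 (0.19, adjusted p = 0.14), without unimmunised replicate 2 (0.19, adjusted p = 0.14), or without the 5 arrays with salivary transcripts (0.19, adjusted p = 0.18). It was also lost with only these 6 arrays fitted (adjusted p = 0.092), with no filter (0.050) and after renewed quantile normalization (0.066).

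Tolerised mice, too, had more of 5 of the 6 transcripts in CD11c+ cells than unimmunised mice. Ciita read 7.68, 7.65 and 7.76 on tolerised CD11c+ arrays, 3.04-fold above unimmunised arrays (adjusted p = 5.6e-06). H2-DMa was 1.72-fold higher in tolerised than in unimmunised mice (adjusted p = 3.4e-05), H2-Eb1 1.29-fold (adjusted p = 0.00049) and H2-Ab1 1.28-fold (adjusted p = 0.0014). Cd74 was 1.17-fold higher at an adjusted p of 0.046, and without any one of tolerised replicates 1, 2 and 3 or of unimmunised replicate 2 its adjusted p was between 0.08 and 0.19. It was 0.12 with only these 6 arrays fitted, 0.071 with no filter, 0.16 after renewed quantile normalization, 0.072 with array weights and 0.26 without the salivary arrays. H2-Aa differed by -0.09 (adjusted p = 0.64). Again 5 of 6 genes were called higher, beside 31.9% of all genes tested. Both comparisons share the unimmunised arrays.

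Set directly against primed mice, tolerised mice showed no called difference in any of the 6 genes, while 2.84% of all genes tested were called; Eif2s3y differed between these groups. The Ciita difference was 0.05 with a 95% confidence interval of -0.28 to 0.38, and that of H2-DMa 0.00 with an interval of -0.21 to 0.21. The intervals of H2-Ab1 (-0.23 to 0.09), H2-Eb1 (-0.21 to 0.07) and Cd74 (-0.22 to 0.16) were narrower than that of H2-Aa (-0.37 to 0.23). Genes of the interferon-gamma response, a known inducer of Ciita in many cells, differed in the same comparison: 6 of 10 tested were higher in tolerised mice, beside 1.39% of all genes, among them the guanylate-binding protein gene Gbp2 (8.33 against 6.49, adjusted p = 0.0049) and the chemokine gene Cxcl9 (9.86 against 8.58, adjusted p = 0.0069).

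Abatacept-treated mice had less Ciita and less of several class II transcripts in CD11c+ cells than control IgG mice. Ciita read 6.25, 6.48 and 6.76 on abatacept arrays, against 7.34, 6.91 and 7.26 on control IgG arrays. The highest abatacept array was below the lowest control IgG array, and the difference of -0.68 ± 0.154 (log2, SE) had an adjusted p of 0.012. H2-DMa read 8.99, 9.06 and 9.18 on abatacept arrays, against 9.62, 9.43 and 9.51 on control IgG arrays (difference -0.44, adjusted p = 0.010). H2-Ab1 read 11.68, 11.68 and 11.79 on abatacept arrays, against 12.06, 11.90 and 12 on control IgG arrays (difference -0.27, adjusted p = 0.028). H2-Eb1 read 11.73, 11.81 and 11.84 on abatacept arrays, against 12.04, 11.99 and 12.08 on control IgG arrays (difference -0.24, adjusted p = 0.024). H2-Aa differed by -0.22 (adjusted p = 0.33), and Cd74 differed by -0.18 with overlapping arrays (adjusted p = 0.21). Thus 4 of 6 were called lower, beside 8.86% of all genes tested. These calls rested on few arrays. With any one of abatacept replicate 1, control IgG replicate 1 or control IgG replicate 3 left out, the adjusted p of Ciita was between 0.055 and 0.059, with differences of -0.56 to -0.63. H2-Ab1 and H2-Eb1 lost their calls without any one of those 3 arrays or abatacept replicate 2, with adjusted p of 0.064 to 0.11, and H2-DMa lost its call without abatacept replicate 1 or control IgG replicate 1, at adjusted p of 0.050 and 0.051. With each gene's probe sets averaged, Ciita was not called (-0.38, adjusted p = 0.095), nor were Ciita (-0.41, adjusted p = 0.13) and H2-DMa (-0.24, adjusted p = 0.17) with their next probe sets, and with no filter H2-Ab1 had an adjusted p of 0.050. With only the 6 arrays of these groups fitted, H2-Ab1 and H2-Eb1 had adjusted p of 0.064 and 0.068. Without the 5 arrays with salivary transcripts, control IgG replicate 1 was the only control IgG array left. The differences of H2-Ab1 (-0.38) and H2-Eb1 (-0.28) were then no smaller, but they rest on that 1 array. Salivary Amy1 averaged 4.37 on abatacept and 9.32 on control IgG arrays, and the part of the salivary tissue in the difference was not tested. Eif2s3y differed between these groups as well.

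None of the 6 genes was called between abatacept-treated and unimmunised mice, where 2.34% of all genes were called. Ciita had the widest gap of these, 0.40 with an interval of 0.07 to 0.73 (adjusted p = 0.20). Between control IgG and primed mice 0 of 6 were called, and 0.0196% of all genes, with a median difference of -0.172 over the 6 genes. Ciita was lower with control IgG by -0.48 (interval -0.81 to -0.145, adjusted p = 0.29). H2-Ab1 was lower by -0.25 (interval -0.41 to -0.09, adjusted p = 0.24). H2-Aa and Cd74 each differed by -0.03. Against tolerised mice, abatacept-treated mice had 2.30-fold less Ciita (adjusted p = 7.2e-05), 1.56-fold less H2-DMa (adjusted p = 0.00025), 1.37-fold less H2-Ab1 (adjusted p = 0.00044) and 1.25-fold less H2-Eb1 (adjusted p = 0.0018). H2-Aa and Cd74 were not called there, and 20.9% of all genes were called lower. H2-Aa was called lower in that comparison with its probe sets averaged (-0.27, adjusted p = 0.012) and with its next probe set (-0.35, adjusted p = 0.0057).

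In order of its mean, Ciita in CD11c+ cells ran from tolerised (7.70 ± 0.06) and primed (7.65 ± 0.16) through control IgG (7.17 ± 0.23) to abatacept (6.496 ± 0.25) and unimmunised (6.10 ± 0.25; SD, n = 3 each). Tolerised and primed arrays overlapped, as did abatacept and unimmunised arrays. Over the 15 CD11c+ arrays Ciita correlated with H2-DMa at Pearson r = 0.971, with H2-Eb1 at 0.959, with H2-Ab1 at 0.884 and with Cd74 at 0.867, but with H2-Aa at -0.021. These arrays share the 5 group differences, so the correlations describe group levels as much as single arrays.

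**Figure D2:**
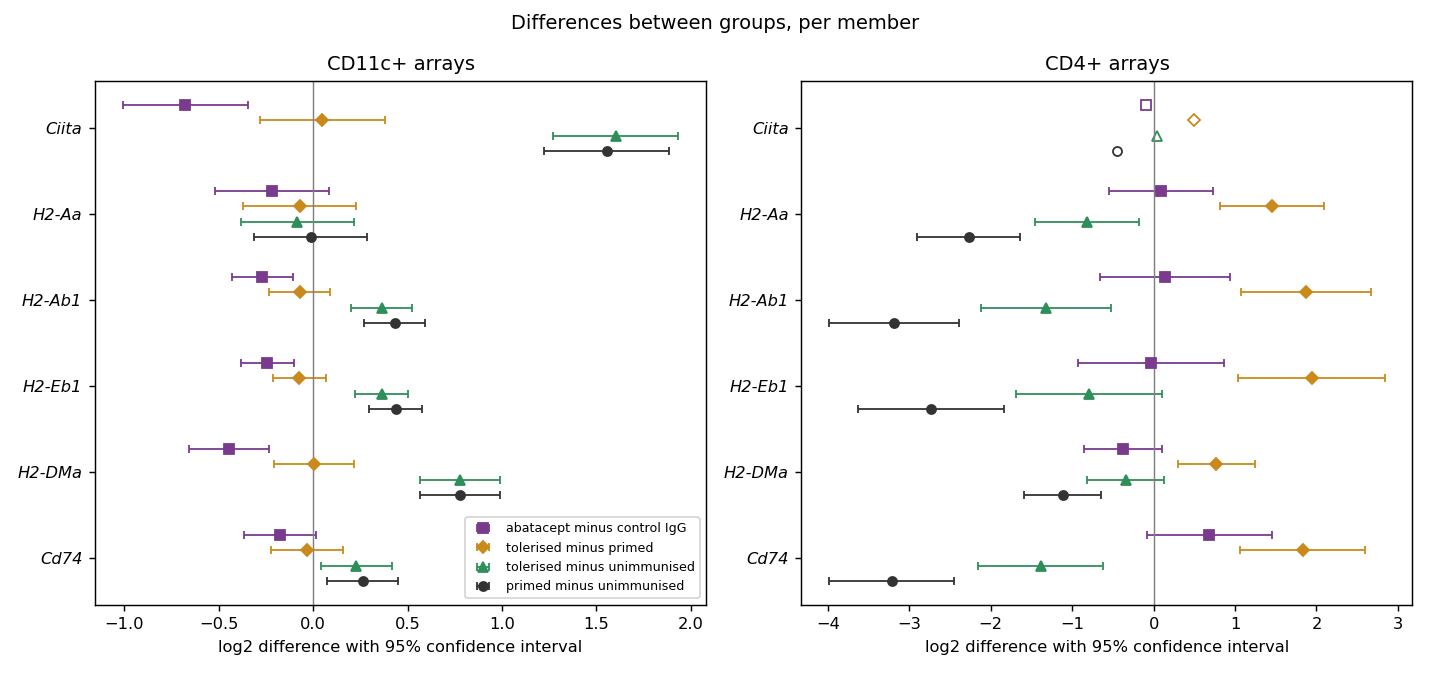
Log2 differences of each gene between groups (x axis) with 95% confidence intervals, for CD11c+ arrays on the left and CD4+ arrays on the right, on different scales; open symbols mark Ciita in CD4+ cells, where it was below the array median and not tested. In CD11c+ cells primed and tolerised mice lay above unimmunised mice for all genes but H2-Aa, and in CD4+ cells they lay below for the 5 genes tested.

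H2-Aa depended on the probe set. The kept probe set, whose identifier carries the suffix x, averaged 8.996 over all 30 arrays, and the next, with the suffix s, averaged 8.85. The next probe set read 11.85, 11.85 and 11.74 on primed arrays, against 11.23, 11.35 and 11.36 on unimmunised arrays. Tested over all genes in place of the kept one, it was called higher in primed (0.50, adjusted p = 0.00053) and in tolerised mice (0.33, adjusted p = 0.0052) and lower in abatacept-treated than in control IgG mice (-0.32, adjusted p = 0.024). The last probe set averaged 2.66, was below the array median, and was not tested. In this array family the suffix x marks probe sets with probes that can match other transcripts; the part of such matches in these readings was not tested. The 3 probe sets of H2-Ab1 were all lower in abatacept-treated than in control IgG mice, at -0.27, -0.38 and -0.41 (adjusted p = 0.035, 0.023 and 0.022 in a fit over probe sets). Of 3 Ciita probe sets, all were higher in primed than in unimmunised mice (1.56, 0.52 and 0.93), but only the kept one was called lower with abatacept; the others differed by -0.41 (adjusted p = 0.14) and -0.06 (adjusted p = 0.89). The other probe set of H2-DMa differed by -0.24 with abatacept (adjusted p = 0.19).

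**Figure D3:**
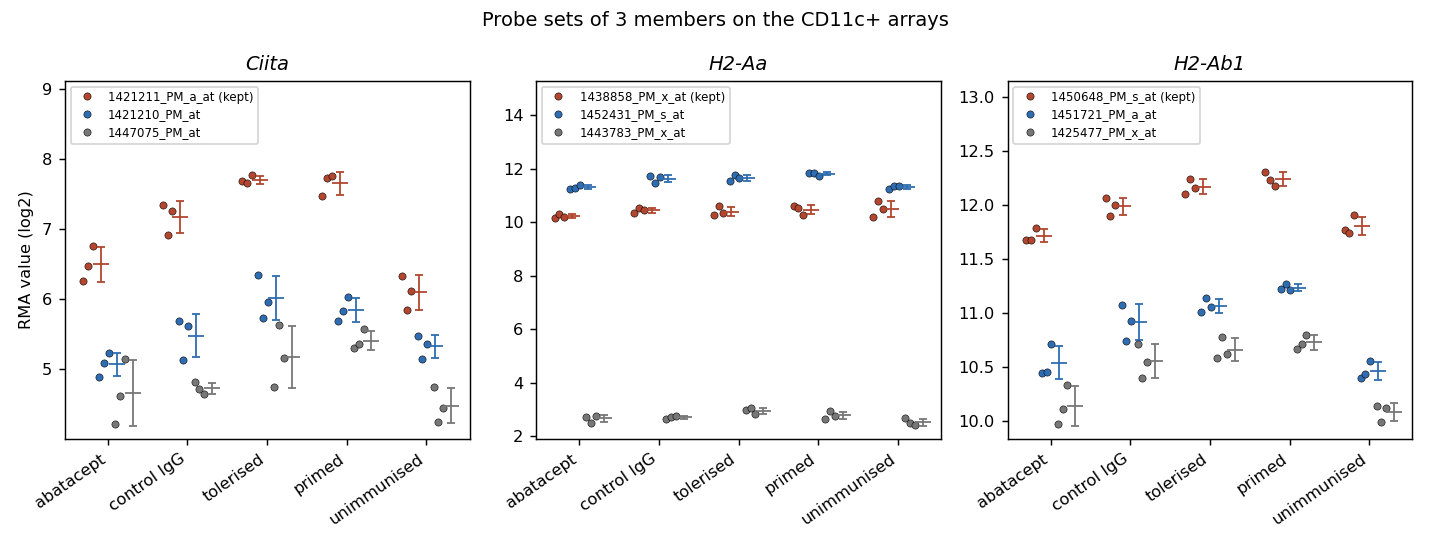
RMA log2 values (y axis) of every probe set of Ciita, H2-Aa and H2-Ab1 on the CD11c+ arrays, by condition (x axis); points are arrays and bars are mean ± SD (n = 3). The kept H2-Aa probe set overlaps between primed, tolerised and unimmunised mice while the next one is higher in primed and tolerised than in unimmunised mice, and the 3 H2-Ab1 probe sets run in parallel.

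Of 6 further class II chain genes measured in CD11c+ cells, 5 were higher in primed than in unimmunised mice, beside 25.5% of all genes, and 5 in tolerised than in unimmunised mice, beside 31.9%. With abatacept 4 of 6 were lower than with control IgG, beside 8.86% of all genes. H2-Oa and H2-Ob encode the DO molecule, an inhibitor of DM. H2-Oa averaged 8.96 in primed and 7.68 in unimmunised mice (adjusted p = 3.4e-05), and H2-Ob averaged 9.44 in primed and 8.33 in unimmunised mice (adjusted p = 5.7e-05). With abatacept H2-Oa averaged 7.92, against 8.57 with control IgG (adjusted p = 0.011), and H2-DMb1, a DM beta chain, 8.08 against 8.52 (adjusted p = 0.0097). H2-Ea, the partner chain of H2-Eb1, averaged between 11.47 and 11.68 in all 5 conditions.

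Of 7 promoter factor genes, 4 were higher in primed than in unimmunised CD11c+ cells, beside 25.5% of all genes, including the RFX subunits Rfx5 (8.33 against 7.66, adjusted p = 0.0013) and Rfxap (7.12 against 6.59, adjusted p = 0.00014) and the NF-Y subunits Nfya and Nfyb. None of the 7 was called between abatacept and control IgG, where 8.86% of all genes were called lower and 6.43% higher. With so few genes this is near the share of all genes. Of 11 genes listed as inducers or repressors of Ciita, 7 were higher and 1 lower in primed than in unimmunised mice, beside 25.5% of all genes called higher and 13.2% lower. With abatacept 5 were lower than with control IgG, beside 8.86% of all genes. The list pools inducers with repressors, so these counts have no direction for Ciita, and it shares Flt3 with the dendritic cell markers below. Irf4, a dendritic cell transcription factor, averaged 7.50 with abatacept and 8.30 with control IgG (adjusted p = 0.0025), and the interferon-gamma receptor kinase gene Jak2 averaged 9.56 with abatacept and 10.25 with control IgG (adjusted p = 0.0052). Of 9 genes of peptide loading and class II turnover, 2 were higher in primed than in unimmunised mice, a share near that of all genes (25.5%), and 4 were lower, beside 13.2% of all genes. The thiol reductase gene Ifi30 was higher (11.04 against 10.51, adjusted p = 0.00035), while the endopeptidase gene Lgmn (7.62 against 8.77, adjusted p = 0.0019) and the ubiquitin ligase gene Marchf8 (8.46 against 9.25, adjusted p = 2.0e-04) were lower. Of 5 costimulatory ligand genes, 3 were lower and 1 higher with abatacept than with control IgG, beside 8.86% and 6.43% of all genes. Cd40 averaged 7.74 with abatacept and 9.60 with control IgG (adjusted p = 0.00084), whereas Cd86, a target of abatacept, averaged 9.68 with abatacept and 9.31 with control IgG (adjusted p = 0.021).

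The cell type markers of the CD11c+ arrays moved with the class II genes. The mean of the 5 measured dendritic cell markers lay between 8.68 and 8.78 on primed arrays, 8.17 and 8.47 on tolerised arrays, 8.13 and 8.45 on control IgG arrays, 7.63 and 7.86 on abatacept arrays, and 7.31 and 7.52 on unimmunised arrays. All 5 were higher in primed than in unimmunised mice (25.5% of all genes), and 4 of 5 were lower with abatacept than with control IgG (8.86% of all genes), among them Flt3 (7.29 against 8.11, adjusted p = 0.0021) and Itgax, the gene of CD11c itself (9.62 against 9.99, adjusted p = 0.0069). Red pulp macrophage markers ran the other way. Their mean lay between 9.94 and 10.18 on primed arrays, 9.02 and 9.84 on tolerised arrays, 10.06 and 10.64 on control IgG arrays, 10.90 and 11.06 on abatacept arrays, and 11.01 and 11.12 on unimmunised arrays. All 7 were lower in primed than in unimmunised mice (13.2% of all genes), and 3 of 7 were higher with abatacept than with control IgG (6.43% of all genes), among them Spic (10.56 against 9.70, adjusted p = 0.0089). No marker of either list was below the median on all arrays of a CD11c+ group. The part of cell composition in the class II differences was not tested. Neutrophil markers also differed, with 5 of 5 tested higher in primed and in tolerised than in unimmunised mice, beside 25.5% and 31.9% of all genes.

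**Figure D4:**
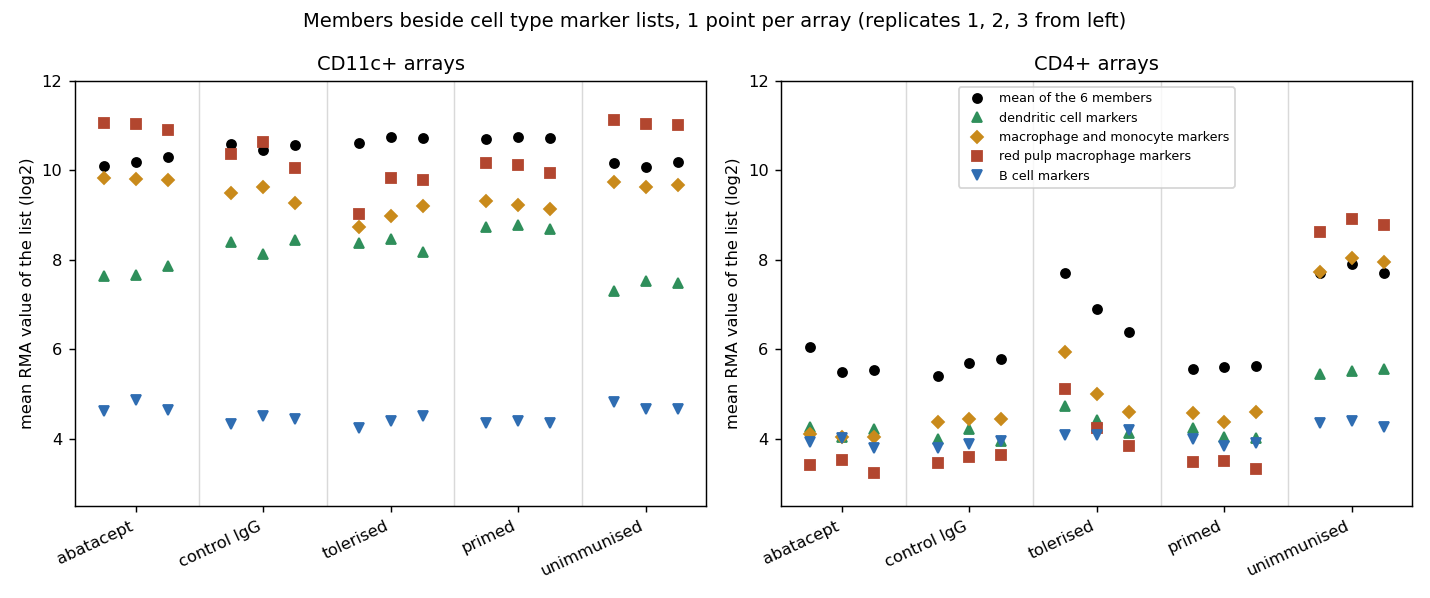
Mean RMA log2 value (y axis) of the 6 genes and of 4 marker lists, 1 point per array, by condition (x axis). On CD11c+ arrays (left) the means of the 6 genes and of the dendritic cell markers are lower in abatacept-treated and unimmunised mice. The mean of the red pulp macrophage markers is higher there. On CD4+ arrays (right) the mean of the 6 genes is highest in tolerised and unimmunised mice, and the macrophage lists are highest in unimmunised mice. Single genes can differ from these means, as H2-Aa does on CD11c+ arrays and Ciita on CD4+ arrays.

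The CD4+ arrays gave another picture. Ciita was below the array median on all 15 CD4+ arrays, between 2.51 and 3.45, and was not tested there. The other 5 genes were above the median on all 15 arrays, so their passing the filter did not depend on one group, and they moved together. Over these arrays H2-Ab1 correlated with Cd74 at r = 0.985, with H2-Eb1 at 0.978 and with H2-Aa at 0.975, again across groups that differ. Mouse T cells are generally held not to make class II molecules, so these values are given as readings of the sorted samples, including presenting cells carried over.

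Unimmunised CD4+ samples, which hold spleen, had the highest means of the 5 genes tested. Cd74 read 6.27, 6.23 and 6.13 on primed arrays, against 9.26, 9.58 and 9.43 on unimmunised arrays, which is 9.28-fold less in primed mice (adjusted p = 6.1e-06). H2-Ab1 was 9.12-fold lower in primed than in unimmunised mice (adjusted p = 9.3e-06), H2-Eb1 6.67-fold (adjusted p = 0.00011), H2-Aa 4.83-fold (adjusted p = 2.5e-05) and H2-DMa 2.17-fold (adjusted p = 0.00093). All 5 genes tested were lower, beside 24.2% of all genes; tissue and sex-linked transcripts differed between these groups as well. Abatacept-treated mice gave 5 of 5 lower than unimmunised mice as well, at 2.76-fold for H2-DMa to 8.18-fold for H2-Ab1, beside 34.5% of all genes. Markers of many other cells differed on the same arrays. Neutrophil markers averaged 10.66 on unimmunised and 3.81 on primed arrays, and erythroid markers 9.36 and 4.12. Mast cell and basophil markers averaged 6.26 and 3.24, natural killer cell markers 8.06 and 6.01, and dendritic cell markers 5.51 and 4.10. Stromal and endothelial markers went the other way, at 3.79 and 4.13. The 8 macrophage and monocyte markers averaged 4.37 to 4.596 on primed arrays and 7.74 to 8.05 on unimmunised arrays, and the 7 red pulp macrophage markers 3.33 to 3.49 on primed and 8.63 to 8.91 on unimmunised arrays. None of the 7 red pulp macrophage markers was above the median on all primed arrays, and all 7 were on all unimmunised arrays. Of the 8 macrophage and monocyte markers, 3 were above it on all primed arrays and 8 on all unimmunised arrays. Markers below the median on the primed arrays passed the filter through other groups, so no count of calls is given. Spic was below the median on every array of the 4 antigen-exposed groups. T cell markers averaged 10.34 to 10.44 on primed arrays, against 9.004 to 9.10 on unimmunised arrays. The part of these cells in the class II readings was not tested.

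Tolerised CD4+ samples, from mesenteric nodes, held more class II transcript than primed samples from axillary nodes. H2-Eb1 read 9.28, 8.09 and 7.08 on tolerised arrays, against 5.85, 6.25 and 6.53 on primed arrays. H2-Ab1 read 8.81, 7.82 and 6.97 on tolerised arrays, against 6.12, 5.85 and 6.03 on primed arrays. Cd74 read 8.99, 7.93 and 7.20 on tolerised arrays, against 6.27, 6.23 and 6.13 on primed arrays. The tolerised arrays spread widely, with replicate 1 the highest for each of the 5 genes. The folds were 3.84 for H2-Eb1 (adjusted p = 0.0071), 3.65 for H2-Ab1 (adjusted p = 0.0044), 3.55 for Cd74 (adjusted p = 0.0040), 2.74 for H2-Aa (adjusted p = 0.0050) and 1.71 for H2-DMa (adjusted p = 0.033). All 5 were called higher, beside 6.24% of all genes tested. The call for H2-DMa was lost when primed replicate 1, primed replicate 2 or tolerised replicate 1 was left out, with adjusted p up to 0.12, and with array weights (0.052). When only these 6 arrays were fitted, H2-Aa (0.065), H2-Eb1 (0.069) and H2-DMa (0.051) no longer passed at the adjusted p shown. The median difference of the 6 genes, with the untested Ciita among them, was 1.64 with all arrays and 1.20 without tolerised replicate 1.

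Markers of several presenting and innate cells were higher in the tolerised CD4+ samples too. The macrophage and monocyte list averaged 5.93, 5.00 and 4.599 on tolerised replicates 1, 2 and 3, against 4.37 to 4.596 on primed arrays, and lysozyme Lyz2 averaged 9.78 in tolerised and 6.78 in primed samples (adjusted p = 0.00083). Itgax averaged 5.31 in tolerised and 3.77 in primed samples, whereas the dendritic cell markers Flt3 and Xcr1 stayed below the median on all tolerised arrays. Itgax was below the median on every primed array and passed the filter through other groups, so no test is given for it. Mast cell and basophil markers averaged 6.17, 6.17 and 4.52 on the tolerised arrays, against 3.21 to 3.28 on primed arrays. All 5 were below the median on every primed array and passed the filter through other groups, so no count of calls is given. On tolerised replicate 1 H2-Eb1 read 9.28, against 8.84 to 9.09 on unimmunised arrays, and H2-Aa read 9.1, against 8.905 to 9.26. The other genes tested were below the unimmunised arrays there: H2-Ab1 (8.81, against 8.975 to 9.32), Cd74 (8.99, against 9.26 to 9.58) and H2-DMa (6.68, against 6.72 to 6.94). The red pulp macrophage list averaged 5.12 on that array, against 8.63 to 8.91 on unimmunised arrays. The part of any of these cells in the class II difference was not tested.

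Compared with unimmunised samples, the tolerised samples were lower in Cd74 (2.61-fold, adjusted p = 0.0055), H2-Ab1 (2.5-fold, adjusted p = 0.0091) and H2-Aa (1.76-fold, adjusted p = 0.033), so 3 of 5 genes were called, beside 29.3% of all genes called lower, in groups that differ in tissue and in Eif2s3y. H2-Eb1 differed by -0.80 (adjusted p = 0.13) and H2-DMa by -0.34 (adjusted p = 0.21). The call for H2-Aa was lost without tolerised replicate 2 or 3 or unimmunised replicate 1 or 2, with adjusted p of 0.072 to 0.16, with only these 6 arrays fitted (0.094) and with its next probe set (0.11). H2-DMa was called with its probe sets averaged (-0.45, adjusted p = 0.026), and H2-Eb1 was called without tolerised replicate 1 (-1.36, adjusted p = 0.0037). The median difference of the 6 genes, with the untested Ciita among them, was -0.81 with all arrays. It was -1.30 without tolerised replicate 1 and -0.40 without tolerised replicate 3. The difference of H2-Ab1 was -0.87 without tolerised replicate 3, and that of H2-Aa was -1.23 without tolerised replicate 1.

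No class II gene was called between abatacept and control IgG in CD4+ samples. Against control IgG, 0 of 5 genes were called, while 16.7% of all genes tested were. H2-Aa differed by 0.09, H2-Ab1 by 0.14 and H2-Eb1 by -0.03, with confidence intervals reaching about as far down as up, the widest being that of H2-Eb1 (-0.93 to 0.86). Cd74 read 6.98, 6.07 and 6.32 on abatacept arrays, against 5.33, 5.93 and 6.06 on control IgG arrays, just without overlap (difference 0.69, adjusted p = 0.21). Control IgG against primed mice gave 0 of 5 called as well, beside 0.0872% of all genes. Against tolerised mice all 5 genes were lower with abatacept, from 2.17-fold for H2-DMa (adjusted p = 0.0028) to 3.53-fold for H2-Eb1 (adjusted p = 0.0071), beside 15.8% of all genes called lower, and these groups differ in tissue and in Eif2s3y. With only the 6 arrays of those groups, H2-Aa, H2-Ab1, H2-Eb1 and Cd74 had adjusted p of 0.062 to 0.073.

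Across cell types, the 5 genes above the array median in both were all higher in CD11c+ than in CD4+ cells in each of the 5 conditions. Ciita is left out of these counts because it passed the filter through its CD11c+ values alone. In these comparisons 35.7% of 10794 genes were called higher in CD11c+ cells with abatacept, 30.7% with control IgG, 32% in tolerised, 29.2% in primed and 27.8% in unimmunised mice. In control IgG and in tolerised mice Eif2s3y differed between the cell types as well, so sex and cell type cannot be told apart there. H2-Ab1 averaged 12.24 in CD11c+ and 6.001 in CD4+ cells of primed mice, a 75.5-fold difference (adjusted p = 1.9e-15), but 11.81 in CD11c+ and 9.19 in CD4+ cells of unimmunised mice, a 6.14-fold difference (adjusted p = 1.8e-08). Ciita averaged 7.65 in CD11c+ and 2.70 in CD4+ cells of primed mice, and 6.10 in CD11c+ and 3.15 in CD4+ cells of unimmunised mice. With its CD4+ values below the array median, no fold or test between the cell types is given for Ciita. The change from unimmunised to primed differed between the cell types for all 5 genes, each with the higher value in CD11c+ cells (27.4% of all genes were called so), and the difference between tolerised and primed mice for all 5 as well, each with the lower value in CD11c+ cells (4.95% of all genes). The H2-DMa call in the second contrast (-0.77, adjusted p = 0.049) was lost without any single array of the 4 groups except CD4+ primed replicate 3, with adjusted p of 0.051 to 0.13, and with a replicate block (0.051), array weights (0.073), no filter (0.066) or no salivary arrays (0.083). The difference between abatacept and control IgG differed between the cell types for 0 of 5, beside 14.3% of all genes. Sex-linked transcripts and, in CD4+ samples, tissue moved with the first 2 of these contrasts, and sex-linked transcripts of CD11c+ cells with the last; they cannot be told apart from treatment there.

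The genes whose pattern over the 15 CD11c+ arrays was most like the mean of the 6, among 10197 genes, were Anpep (Pearson r = 0.984), Ppt1 (0.980), Cnn2 (0.979), Itgax (0.979), Sipa1l3 (0.978), S100a11 (0.976), Sdad1 (0.974) and Tmem131l (0.973). Anpep, an aminopeptidase of myeloid cells, averaged 7.99 with abatacept, 8.88 with control IgG, 9.50 in tolerised, 9.38 in primed and 7.83 in unimmunised mice. Over the 15 CD4+ arrays, among 10317 genes, the closest were Dram1 (0.990), Alox15 (0.987), Ms4a6d (0.981), Tgfbi (0.980), Aif1 (0.978), Fn1 (0.977), Cybb (0.977) and Lamp1 (0.974). Dram1, Alox15, Ms4a6d and Tgfbi averaged below the array median with abatacept, with control IgG and in primed mice. They passed the filter through groups where they are high, so their r is a description only. The mean of the 6 includes Ciita, which was below the array median on all 15 CD4+ arrays. Alox15, a lipoxygenase gene of macrophages and eosinophils, averaged 2.79 with abatacept, 2.42 with control IgG, 6.03 in tolerised, 2.49 in primed and 7.44 in unimmunised samples. The arrays of a group share treatment and tissue, so these likenesses are mostly between groups.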

How the data were processed

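RNA of CD11c+ cells and CD4+ T cells was measured on 30 Affymetrix mouse arrays, 3 for each of 10 groups. The authors deposited 1 table of log2 values for 45118 probe sets, and RMA made them, per the submitters' processing notes, which name no version. RMA corrects background, quantile-normalizes the arrays and sums up each probe set. This gives all arrays 1 distribution, so differences are relative to the whole array. Precision is limited by having 3 arrays a group. Of the probe sets, 28898 had 1 gene symbol, 551 several and 15669 none.

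One probe set per gene was kept, that with the highest mean over all arrays. A gene was tested in a cell type if at least 3 of that cell type's 15 arrays read it above their median, which left 10322 genes in CD4+ and 10203 in CD11c+ cells. Differences between groups were tested with limma 3.58.1 (R 4.3.3; lmFit and eBayes, two-sided) on all arrays of a cell type, or on all 30 arrays between cell types and for interactions (10794 genes), with Benjamini-Hochberg adjustment over all genes tested. A gene is called at an adjusted p under 0.05. There were 7 comparisons per cell type, 5 between cell types and 3 interactions. The 6 genes and all gene lists were chosen with earlier results of these data known. Genes were named as members, as listed genes with their counts, and as the 8 genes per cell type with the highest Pearson r to the mean of the 6. The fitting code was tested on simulated data. Same-numbered replicates did not pair: no comparison had all 3 pair correlations over 0.1. Alternatives were no filter, renewed quantile normalization, other probe set choices, array weights, the 2 groups alone, a replicate block, each array left out, and no arrays with salivary transcripts.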

Additional observations from a re-analysis of the deposited data

Results flagged for a closer look

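The change between primed and unimmunised mice differed between CD11c+ and CD4+ samples for the 5 genes above the array median in both, tested as an interaction in limma. The CD11c+ difference minus the CD4+ difference was 2.26 for H2-Aa (log2, adjusted p = 9.9e-06), 3.62 for H2-Ab1 (adjusted p = 8.5e-08), 3.18 for H2-Eb1 (adjusted p = 3.3e-06), 1.89 for H2-DMa (adjusted p = 1.6e-06) and 3.48 for Cd74 (adjusted p = 1.0e-07). For Ciita it was 2.01, given with no test: its CD4+ values were below the array median on all 15 arrays, and it entered this fit through its CD11c+ values alone. For H2-Aa the kept probe set differed little in CD11c+ cells, so the value came from the CD4+ samples.

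The difference between tolerised and primed mice also differed between the cell types for 5 genes. It was -1.52 for H2-Aa (adjusted p = 0.0043), -1.94 for H2-Ab1 (adjusted p = 0.0021), -2.01 for H2-Eb1 (adjusted p = 0.0039), -0.77 for H2-DMa (adjusted p = 0.049) and -1.86 for Cd74 (adjusted p = 0.0023). The value for H2-DMa had an adjusted p of up to 0.13 when 1 array was left out. In both contrasts the CD4+ groups came from different tissues and the CD11c+ groups did not, and tissue cannot be told apart from treatment. Nor can sex: Eif2s3y averaged 8.58 in primed and 2.58 in unimmunised CD11c+ cells and 8.62 in primed and 2.56 in unimmunised CD4+ samples. For tolerised against primed mice it averaged 2.62 and 8.58 in CD11c+ cells and 8.89 and 8.62 in CD4+ samples.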

How the results depend on the processing

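Values are log2 differences. Medians over the 6 genes within CD4+ samples, between cell types and of interactions include Ciita, whose CD4+ values were below the array median. Medians over the 6 genes changed sign only where they were near 0: for abatacept against control IgG CD4+ samples (0.03; -0.016 with array weights, -0.12 to 0.12 with 1 array left out), for control IgG against primed CD4+ samples (0.03; -0.10 with the next probe set, -0.06 to 0.13 with 1 array left out) and for abatacept against unimmunised CD11c+ cells (0.05; -0.03 without the salivary arrays). With each gene's probe sets averaged, the median was -2.33 for primed against unimmunised CD4+ samples, -0.29 for abatacept against control IgG in CD11c+ cells, and 2.27, 4.96 and 4.64 for CD11c+ against CD4+ cells in unimmunised, primed and control IgG mice. With the next-highest probe set, an alternative chosen after seeing the data, these were -2.94 for primed against unimmunised CD4+ samples, 0.48 for tolerised against unimmunised CD11c+ cells, 5.93, 5.98 and 5.45 for CD11c+ against CD4+ cells in primed, control IgG and abatacept-treated mice, and -0.69 (abatacept against control IgG) and 3.33 (primed against unimmunised) for the interactions. Renewed quantile normalization gave 5.34 for CD11c+ against CD4+ cells in primed mice and 2.60 for the interaction of primed against unimmunised. Leaving out the 5 arrays with salivary transcripts leaves 1 control IgG array. The median was then -0.33 for abatacept against control IgG and -0.13 for control IgG against primed CD11c+ cells. With 1 array left out it ran from -0.29 to -0.23 and from -0.20 to -0.14 in those comparisons, and from 5.33 to 5.49 and 4.76 to 5.01 for CD11c+ against CD4+ cells in primed and control IgG mice. A replicate block ended the call of H2-DMa in the interaction of tolerised against primed (adjusted p = 0.051) and left the median of tolerised against primed CD4+ samples at 1.64. The cause of these changes was not tested.

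Changes of sign concerned H2-Aa in CD11c+ cells and differences that were not called. H2-Aa in primed against unimmunised CD11c+ cells was 0.25 with averaged probe sets (adjusted p = 0.02), 0.50 with the next one, 0.14 without the salivary arrays and -0.17 to 0.14 with 1 array left out. In tolerised against unimmunised cells it was 0.23 (adjusted p = 0.024), 0.33, 0.10 and -0.24 to 0.07. In abatacept against unimmunised CD11c+ cells H2-Ab1 was 0.014 averaged and 0.077 with the next probe set, Ciita -0.26 with the next, H2-Eb1 -0.003 and Cd74 -0.059 without the salivary arrays, and Cd74 -0.015 to 0.099 with 1 array left out. In tolerised against primed CD11c+ cells H2-DMa was -0.006 after quantile normalization, -0.058 without the salivary arrays and -0.058 to 0.094 with 1 array left out, Ciita -0.006 averaged and -0.045 to 0.104, and Cd74 -0.077 to 0.04. In control IgG against primed CD11c+ cells Cd74 was 0.008 with array weights and 0.017 without the salivary arrays, which leaves 1 control IgG array. With 1 array left out Cd74 was -0.071 to 0.046 there and H2-Aa -0.126 to 0.039. In abatacept against control IgG CD4+ samples H2-Eb1 was 0.10 after quantile normalization, and with 1 array left out H2-Aa was -0.038 to 0.217, H2-Ab1 -0.16 to 0.45 and H2-Eb1 -0.25 to 0.16. In control IgG against primed CD4+ samples H2-Ab1 was -0.012 with array weights, -0.045 averaged and -0.35 with the next probe set, and H2-Aa -0.14 and -0.36; with 1 array left out H2-Aa was -0.18 to 0.17, H2-Ab1 -0.084 to 0.111, H2-Eb1 -0.041 to 0.363 and H2-DMa -0.13 to 0.22. In the interaction of abatacept against control IgG H2-DMa was 0.026 with the next probe set and -0.31 to 0.13 with 1 array left out, and H2-Eb1 -0.404 to 0.007. Ciita in that interaction was -0.58, with -0.68 under array weights and -0.77 without CD4+ control IgG replicate 2. No test is given for Ciita there, because it was below the median on every CD4+ array.

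Counts of all genes called moved by over 1.5 times in some settings. With the 2 groups alone they were 822 against 1514 for tolerised against primed CD4+ samples and 1107 against 2408 for abatacept against tolerised CD4+ samples. Where control IgG CD11c+ cells are compared, no count is given without the salivary arrays, because 1 control IgG array was left. For abatacept against control IgG CD11c+ cells the counts were 2696 with array weights, against 1560. They were 524 to 777 without abatacept replicate 1 or 2 or control IgG replicate 1 or 3. For tolerised against primed CD11c+ cells they were 532 with array weights, 110 with the 2 groups alone, 80 without the salivary arrays and 76 to 190 with 1 array left out, against 290. For abatacept against unimmunised CD11c+ cells they were 91 with the 2 groups alone, 124 after quantile normalization, 22 without the salivary arrays and 54 to 128 with 1 array left out, against 239. For control IgG against primed CD11c+ cells they were 150 with array weights, 50 with the 2 groups alone and 5 or fewer otherwise, against 2, and for CD4+ samples 15 with array weights, against 9. For abatacept against control IgG CD4+ samples they were 1036 to 1107 without abatacept replicate 2 or 3 or control IgG replicate 2, against 1722, and for tolerised against primed CD4+ samples 997 without tolerised replicate 1. For the interaction of abatacept against control IgG they were 2515 with array weights and 1015 without CD11c+ control IgG replicate 3, against 1548.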

Other observations

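H2-Oa, the alpha chain gene of the DO molecule that inhibits DM, ran against the 5 other class II genes in CD4+ samples. It read 7.13, 7.12 and 7.26 on primed arrays, against 5.30, 5.39 and 5.33 on unimmunised arrays (difference 1.83 ± 0.129, SE; limma adjusted p = 7.9e-08). It was also higher than in unimmunised samples in tolerised samples (2.03, adjusted p = 2.9e-08) and with abatacept (1.75, adjusted p = 9.4e-08). Tissue differed between these groups, and the Y-linked Eif2s3y averaged 8.62 on primed, 8.89 on tolerised and 2.60 on abatacept arrays, against 2.56 on unimmunised arrays. T cell markers were lower, and macrophage and neutrophil markers higher, on the same unimmunised arrays. Its partner gene H2-Ob read 7.14, 7.17 and 7.10 on primed arrays, against 7.11, 7.31 and 7.13 on unimmunised arrays, a difference of -0.04 (adjusted p = 0.84).

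H2-Ea followed the other chains in the CD4+ samples. It read 9.39, 8.02 and 7.28 on tolerised arrays, against 5.61, 6.07 and 5.70 on primed arrays (difference 2.44, adjusted p = 0.0024). Class I pathway genes went the other way from the class II chains: all 8 tested were higher in primed than in unimmunised CD4+ samples, beside 23.3% of all genes.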
